A study of Rattus norvegicus with 12 samples.

Results

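Fibro-adipogenic progenitors of rat soleus muscle differed after 14 days of hindlimb suspension from those of control rats before any adipogenic stimulus was given. This account compares the 2 libraries of cells from rats (Rattus norvegicus) suspended for 14 days with the 2 libraries of cells from control rats, which were not suspended, both at day 0 of differentiation. It covers every expressed gene: of the 32622 gene identifiers in the table of counts, 13215 had enough reads to be tested. The full series holds 12 libraries in 6 groups of 2, namely control cells and cells after 7 or 14 days of suspension, sampled before induction (day 0) and on day 3 of it. The day 3 cells had been moved to a medium with insulin, dexamethasone and 3-isobutyl-1-methylxanthine, and the day 0 cells had been grown only in serum-containing culture medium. All were primary cells of the soleus, isolated and cultured to a subconfluent state, per the labels' protocols. Strain, age, sex, the number of animals and any pooling of animals are not stated in the labels. The labels also do not say whether the 2 replicates came from separate animals or cultures, or whether day 0 and day 3 cells came from the same cultures. Every p-value rests on the spread between libraries, and that spread may be technical.

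Fibro-adipogenic progenitors are mesenchymal cells that lie between muscle fibres. They make extracellular matrix, support muscle stem cells during repair, and can turn into fat cells or into matrix-producing fibroblasts when muscle is injured or unused. In hindlimb suspension the hind legs of a rat are lifted from the floor so that they bear no weight. The soleus, a slow postural muscle that is normally almost always loaded, is among the muscles that waste most in this model. RNA was taken from the cells after culture, so a difference at day 0 is one that was present in the dish.

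The files do not pair the Ensembl identifiers with gene names, and a lookup in a RefSeq gene table of the rat (assembly GRCr8) matched 0 of the 32622. The cell type given by the labels was therefore not checked against its marker genes, the presence of other cell types was not tested, and no pathway can be described. Genes are described here as groups defined by level and by behaviour, and 4 genes are given by identifier. The 4 libraries held from 17929398 to 21484885 counts and detected 15051 to 15161 genes. Replicates correlated at r = 0.990 in control cells and at 0.991 after 14 days (log2 CPM, meaning counts scaled to the same library total, across genes). The count differences within a pair of replicates were larger than the sampling noise of single reads, with a chi-square per degree of freedom of 4.17 and 3.12. The pairs of 7-day cells, which are used further below, had 7.36 at day 0, the highest of the 6 groups, and 4.64 at day 3. Of the counts from 1 to 20 in the 4 libraries compared, 68.7% to 69.5% were even numbers, so single counts may not be independent reads.

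In cells of rats unloaded for 14 days, 1038 genes stood above and 1175 below their level in control cells before induction, and 11002 did not pass the test. The 2213 changed genes were 16.7% of all genes tested, 7.85% higher and 8.89% lower. A gene passed with an adjusted p under 0.05 in the quasi-likelihood test of edgeR, in 1 fit to all 12 libraries. Levels are CPM on libraries scaled by the TMM method, and differences are fitted log2 differences, 14 days minus control. In all 1038 genes that rose, both 14-day libraries lay above both control libraries, and in 1172 of the 1175 that fell, both lay below. Over all 13215 genes, called or not, such separation was found upward in 3618 (27.4%) and downward in 3759 (28.4%), and among the 11002 not called in 2580 and 2587. These are bulk measurements, in which fewer cells of a kind and less RNA per cell cannot be told apart.

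Most of the differences were small. The median gene among those that rose stood 1.32-fold above control, and the median gene among those that fell stood 1.44-fold below. The falls reached further than the rises. At least 1.5-fold, 337 genes were higher (2.55% of all genes tested) and 525 lower (3.97%). At least 2-fold, 146 were higher (1.10%) and 288 lower (2.18%). At 4-fold or more there were 43 rises (0.325%) and 125 falls (0.946%). At 8-fold or more there were 18 rises (0.136%) and 47 falls (0.356%). Over all 13215 genes the median log2 difference was -0.0020.

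**Figure D1:**
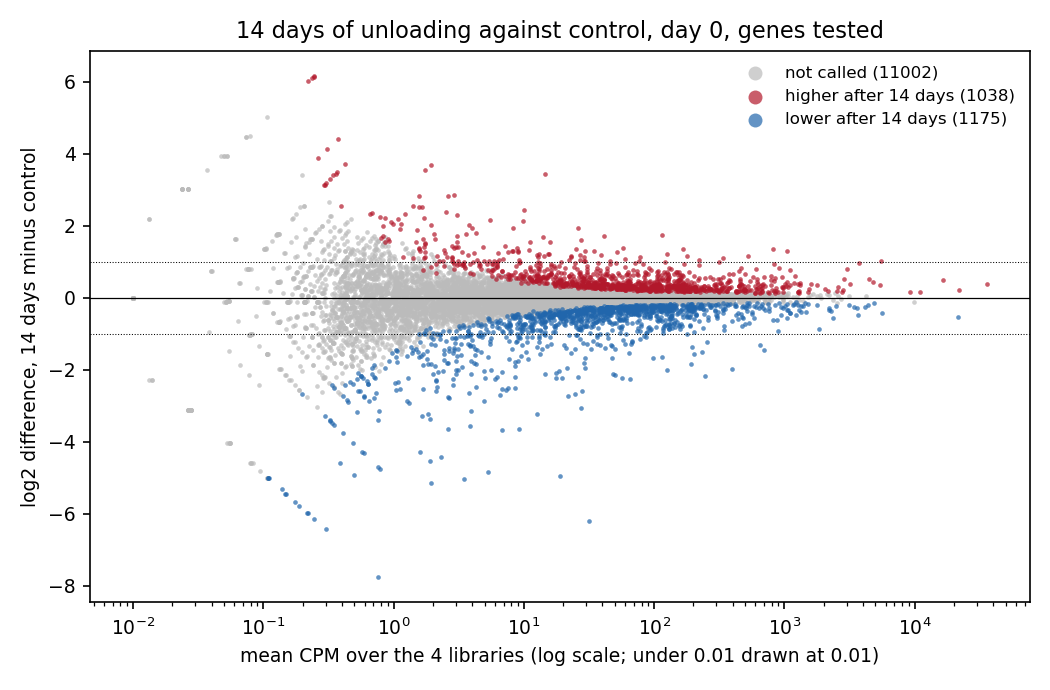
Log2 difference between 14-day unloaded and control cells at day 0 (vertical axis) against the mean CPM of the gene over the 4 libraries (horizontal axis, log scale), 1 point per gene tested. The 1038 genes that were higher are red, the 1175 that were lower blue and the 11002 not called grey; dotted lines mark 2-fold, past which blue points (288) outnumber red ones (146).

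How small a difference could be called depended on how many counts a gene had. Among 1405 genes with a mean under 1 CPM over the 12 libraries, 71 were called (5.05%), the smallest difference called was 2.80-fold, and the median standard error was 0.73 on the log2 scale. Among the 4930 genes at 20 to 100 CPM, 871 were called (17.7%), from 1.14-fold upward, with a median standard error of 0.092. Among the 101 genes at 1000 CPM or more, 71 were called (70.3%), from 1.09-fold upward, with a median standard error of 0.046. The share of genes called thus rose with the level of the gene, while the median fold of the called genes fell from 6.64 in the lowest class to 1.24 in the highest. A smaller difference in a gene of few counts was not detectable at this depth. CPM is not corrected for the length of the transcript, so these classes rank genes by counts and not by RNA molecules.

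The direction of the calls also differed with level. Under 1 CPM, 23 genes were higher and 48 lower. From 1 to 5 CPM the numbers were 71 and 124, from 5 to 20 CPM 178 and 238, and from 20 to 100 CPM 411 and 460. From 100 to 1000 CPM more genes were higher (319) than lower (270), and from 1000 CPM upward they were 36 and 35. Whether the direction depends on level beyond the number of counts was not tested. The balance of directions also depended on the scaling: over all levels, total count scaling gave 865 higher and 1407 lower genes.

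**Figure D2:**
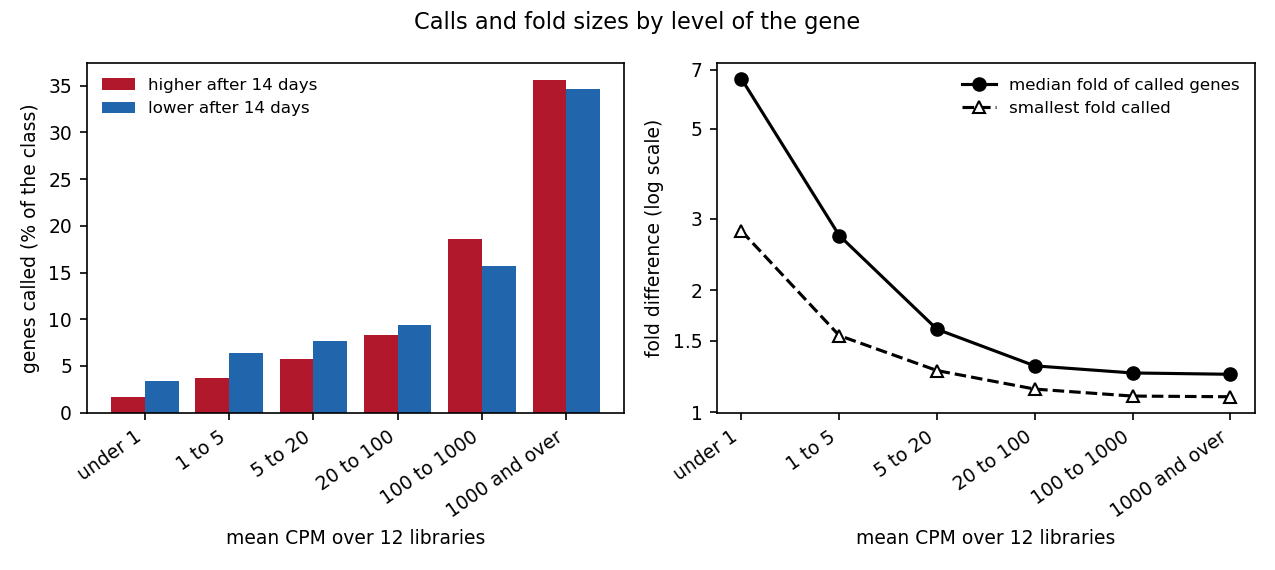
Left, the share of genes called higher (red) or lower (blue) in 6 classes of mean CPM over the 12 libraries; right, the median fold of the called genes (filled circles) and the smallest fold called (open triangles) in the same classes, on a log scale. The share called rises from 5.05% in the lowest class to 70.3% in the highest, where the smallest fold called is 1.09.

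The genes that changed took a large part of the RNA counted. The 1038 higher genes held 24.9% and 25.1% of the counts in the 2 control libraries, and 31.5% and 31.8% in the 2 libraries after 14 days. The 1175 lower genes held 21.2% in each control library, and 15.5% and 15.6% after 14 days. Much of this lay in abundant genes with modest folds, more so for the higher than for the lower genes. Of the genes with at least 1000 CPM in the higher of the 2 groups, 48 were higher and 41 lower. The 48 held 15.4% ± 0.168 of the counts in control cells and 19.6% ± 0.212 after 14 days (SD, n = 2), with a median fold of 1.29. The 41 held 11.2% ± 0.0149 and 8.38% ± 0.0404 (SD, n = 2), with a median fold of 1.23. The groups were chosen on these same libraries, so the shares describe the size of the change and do not test it.

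The 5 genes with the largest gain in CPM made up 33.2% of the summed gain of all higher genes. Their levels ran from 2525 to 31231 CPM in control cells and from 4945 to 40694 CPM after 14 days, and their folds from 1.17 to 2.05 (adjusted p from 5.13e-20 to 5.36e-06). The most abundant of them, which also gained most, stood at 31961 and 30501 CPM in the control libraries and at 41838 and 39551 CPM after 14 days. The 5 genes with the largest loss made up 24.5% of the summed loss. The most abundant of these stood at 25951 and 24884 CPM in the control libraries and at 17801 and 17104 CPM after 14 days, 1.46-fold lower (log2 difference -0.54, SE 0.045, adjusted p = 3.89e-12). For both of these genes the gap between the groups was larger than that between replicates. In the day 3 libraries, which stand on neither side of that comparison, all 5 gaining genes were again higher in 14-day than in control cells, with log2 differences from 0.28 to 1.01 and adjusted p up to 5.71e-06. Of the 5 losing genes, 2 were again lower at day 3 (log2 difference -0.59 and -0.43) and 3 were higher (0.50, 0.22 and 0.30). The loss of the abundant gene above was among those that turned, with 17900 and 17486 CPM in control cells and 25231 and 24947 CPM in 14-day cells at day 3. Being higher at day 3 was common among abundant genes. Of all 120 tested genes that reached 1000 CPM in control or 14-day cells at day 0, 60 (50.0%) were higher then and 29 (24.2%) lower.

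The largest rise among genes with at least 5 CPM was that of ENSRNOG00000046834. It had 2.76 and 2.05 CPM in the control libraries and 28.0 and 24.9 CPM after 14 days (log2 difference 3.45, SE 0.16, adjusted p = 6.17e-19). Both 14-day libraries thus stood far above both control libraries, about 10.9-fold by the fit. After 7 days of unloading it had 17.9 and 18.8 CPM, and the direct test of 14 against 7 days gave a log2 difference of 0.53 (SE 0.12, adjusted p = 0.0024), which was lost without the first 14-day library (adjusted p = 0.0736). The gene was higher at day 3 too, with 6.66 and 7.69 CPM in control cells against 60.5 and 53.5 CPM in 14-day cells (log2 difference 2.98, SE 0.13, adjusted p = 5.78e-20). Its level rose on induction in 7-day cells, to 25.5 and 30.2 CPM. The genes named here and below were picked as extremes of the 14-day libraries at day 0. Those libraries also enter the tests of 14 against 7 days, which are thereby tilted toward a larger difference after 14 days.

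The rise that came next under the same limit was that of ENSRNOG00000012058. It went from 0.742 and 0.666 CPM in control cells to 4.54 and 5.73 CPM after 14 days (log2 difference 2.85, SE 0.41, adjusted p = 1.09e-06), with 2.55 and 1.74 CPM after 7 days. At day 3 it was under 1 CPM in every library, with 0.131 and 0.237 CPM in control cells and 0.564 and 0.746 CPM in 14-day cells. The day 3 difference passed the threshold narrowly (log2 difference 1.78, SE 0.70, adjusted p = 0.0494), on 6 counts in control cells, and did not pass it with the DESeq2 test (adjusted p = 0.0644). The test of 14 against 7 days at day 0 (log2 difference 1.26, SE 0.36, adjusted p = 0.0146) was also lost without the first (adjusted p = 0.0554) or the second (adjusted p = 0.223) 14-day library, and without the second 7-day library (adjusted p = 0.149).

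The largest fall among genes with at least 5 CPM was that of ENSRNOG00000023548, and at day 3 its difference from control had the opposite sign. It had 67.7 and 56.7 CPM in the control libraries and 0.580 and 1.09 CPM after 14 days, or 11 and 23 counts against 1276 and 1022 (log2 difference -6.19, SE 0.16, adjusted p = 2.57e-26). After 7 days it stood between these groups, at 7.21 and 6.34 CPM, and the 14-day cells were lower than the 7-day cells (log2 difference -2.99, SE 0.23, adjusted p = 2.30e-12). Control cells had 58.6 and 54.8 CPM at day 3, which overlapped their range at day 0. The 7-day cells had 68.0 and 67.7 CPM then, and the 14-day cells 115 and 110 CPM, the highest of all 6 groups. The 14-day cells were thus 72.8-fold below control before induction and 1.99-fold above it after (log2 difference at day 3 0.99, SE 0.087, adjusted p = 1.12e-11).

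ENSRNOG00000058193 had the next largest fall under that limit and was lower at day 3 too. Its level was 7.11 and 6.44 CPM in control cells and 0.211 and 0.189 CPM after 14 days, the latter from 4 counts in each library (log2 difference -5.04, SE 0.46, adjusted p = 5.38e-11). It had 1.33 and 1.12 CPM after 7 days, above the 14-day cells (log2 difference of 14 minus 7 days -2.58, SE 0.57, adjusted p = 0.00166). At day 3 the control libraries, at 1.83 and 3.31 CPM, were still above those of 14-day cells, at 0.339 and 0.533 CPM (log2 difference -2.54, SE 0.45, adjusted p = 2.82e-05).

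**Figure D3:**
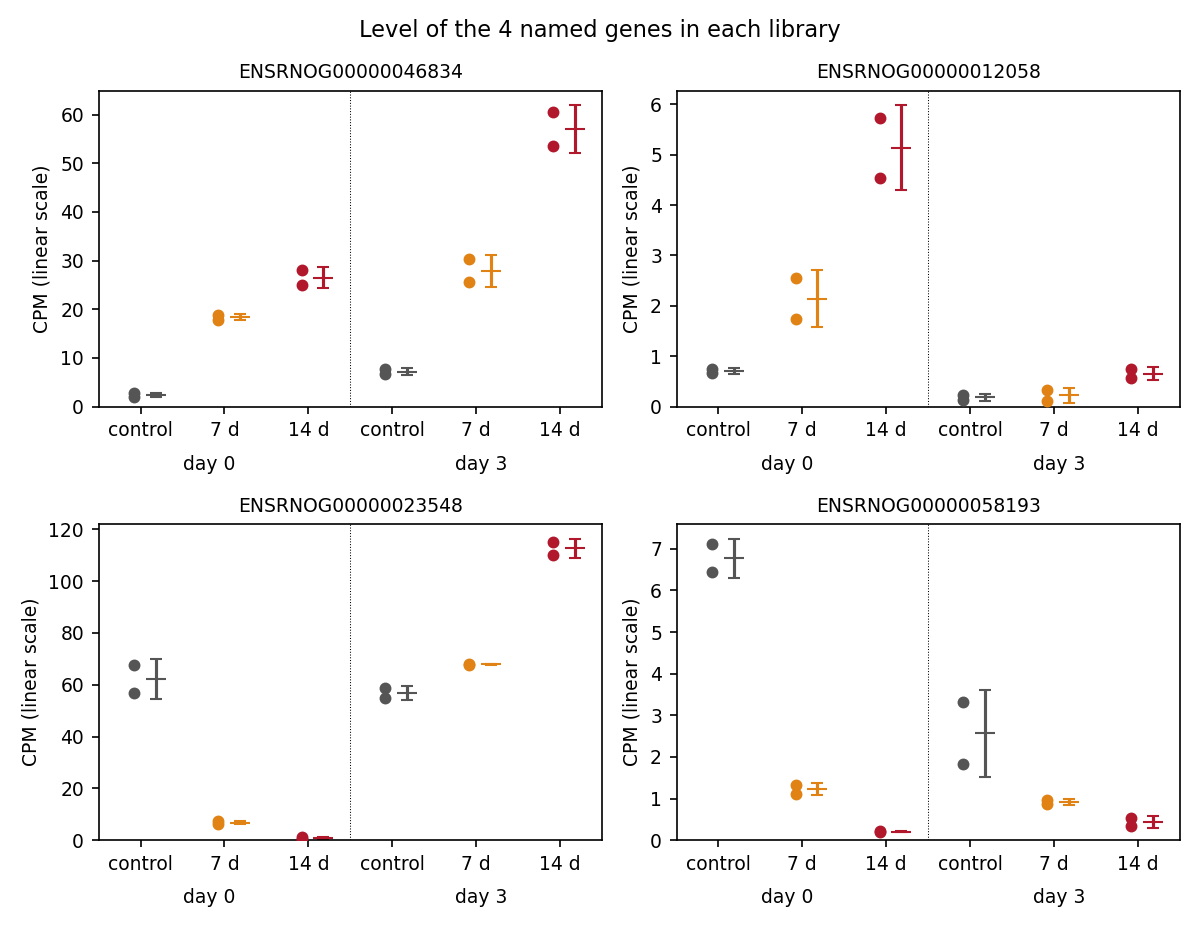
CPM (vertical axes, linear) of the 4 named genes in each of the 12 libraries by group, with points for the libraries and bars for the mean ± SD of 2 libraries beside them; day 0 is left of the dotted line and day 3 right of it. ENSRNOG00000023548 falls from 62.2 CPM in control cells to 0.835 CPM after 14 days at day 0 and is highest in the 14-day cells (113 CPM) at day 3.

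To describe the larger differences as groups, genes were taken that passed the test, differed at least 2-fold, reached a mean of 5 CPM in 1 of the groups and did not overlap between them. There were 70 such higher genes and 146 such lower genes. They are called the raised and the lowered genes below. The members nearest to the 2-fold limit had log2 differences of -1.0005 and -1.01, and the nearest genes outside it -0.9990 and 0.9978, so the limit cuts through a continuous range. The raised genes had a median log2 difference of 1.26 (quartiles 1.12 and 1.53), and the lowered genes one of -1.43 (quartiles -2.06 and -1.19). Of the raised genes, 7 differed at least 4-fold, and of the lowered genes 41. No member had 0 reads in a group, so none of these folds rests on a floor.

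Many of the raised and of the lowered genes were of low level. Of the 70 raised genes, 34 had under 20 CPM after 14 days and 12 had at least 100 CPM, while 1 had under 1 CPM in control cells. Of the 146 lowered genes, 76 had under 20 CPM in control cells and 16 had at least 100 CPM, and 6 were left with under 1 CPM after 14 days. The median raised gene stood at 7.77 and 8.13 CPM in the control libraries and at 21.0 and 21.5 CPM after 14 days. The median lowered gene stood at 18.7 and 19.0 CPM and at 6.38 and 6.30 CPM.

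As a share of all counts, the raised genes went from 0.643% ± 0.00458 in control cells to 1.38% ± 0.0177 after 14 days, and the lowered genes from 0.914% ± 0.0111 to 0.307% ± 0.00103 (SD, n = 2). A single raised gene, at 3651 ± 21.8 CPM in control cells and 7472 ± 221 CPM after 14 days, held more than the other 69 together. Without it the share of the raised genes went from 0.275% ± 0.00238 to 0.646% ± 0.00144. The most abundant lowered gene weighed less: it went from 1017 ± 56.8 to 374 ± 1.89 CPM, and the other 145 went from 0.812% ± 0.00539 to 0.270% ± 0.00134 (SD, n = 2).

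By their medians, the 7-day cells at day 0 lay between control and 14-day cells in both groups of genes. The median raised gene stood at 19.2 and 18.4 CPM in the 7-day libraries, and the median lowered gene at 9.09 and 9.57 CPM. Against control, the median log2 difference of the raised genes was 0.87 after 7 days and 1.26 after 14 days, and that of the lowered genes -1.11 and -1.43. Both comparisons use the same control libraries, and the genes were chosen on the 14-day ones, so the values are set side by side and no overlap is read from them. Over all genes the median after 7 days was -0.0035. The order did not hold in every group of genes. The 41 abundant lower genes had medians of 1498, 1169 and 1241 CPM in control, 7-day and 14-day cells. In the 48 abundant higher genes it held, with 1222, 1464 and 1500 CPM.

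**Figure D4:**
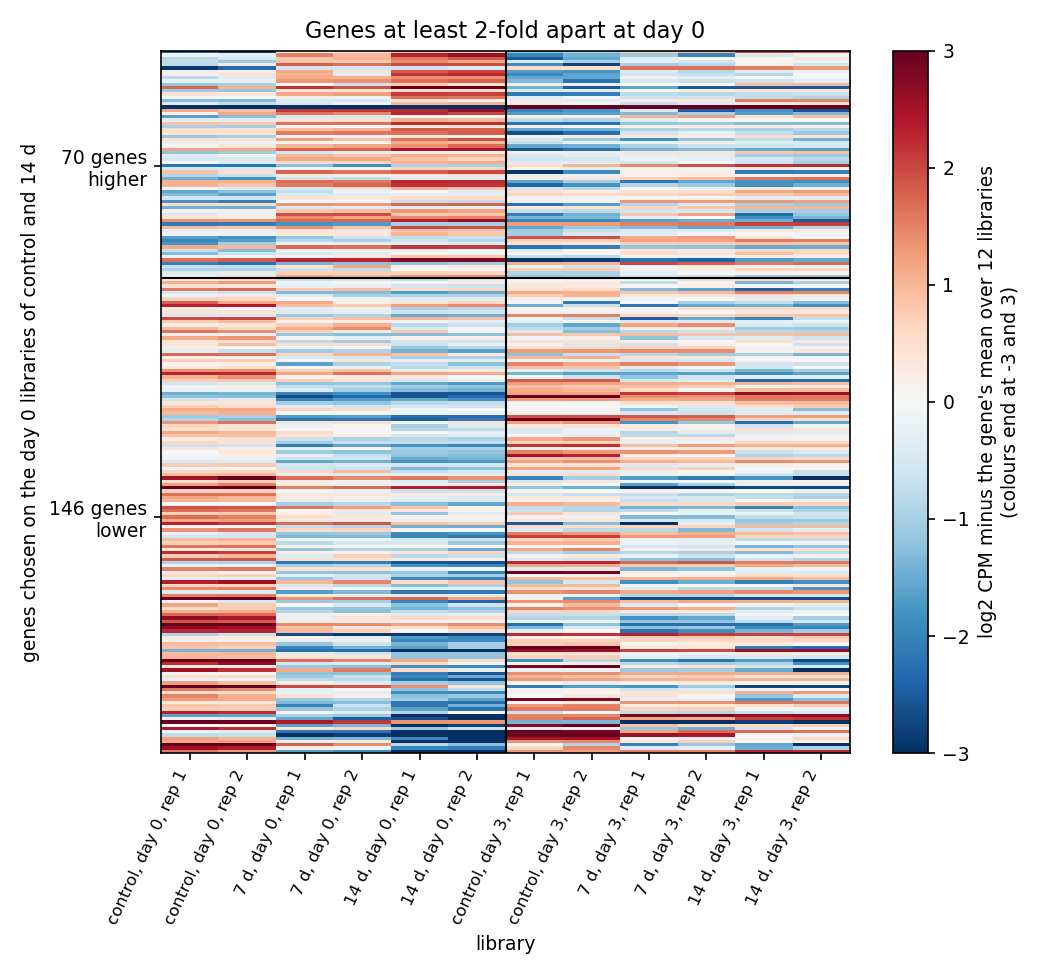
Level of the 70 raised and 146 lowered genes (rows, ordered by their log2 difference at day 0) in the 12 libraries (columns), as log2 CPM minus the mean of the gene over the 12 libraries. The genes were chosen on the control and 14-day libraries of day 0; among the lowered genes at the bottom, the day 3 columns show rows that are red in 14-day cells beside rows that stay blue.

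A question that the design allows is whether the differences of day 0 were still there after 3 days of induction, in libraries that stand on neither side of the day 0 comparison. They entered the choice of genes only through the filter, the scaling and the spread shared in the fit to 12 libraries. Chosen in a fit to the 4 libraries compared alone, the raised genes were the same 70, and 145 of 146 lowered genes were among those given here. Of the 70 raised genes, 43 (61.4%) were again higher in 14-day than in control cells at day 3, 4 were lower and 23 did not pass, where 16.0% of all genes tested were higher and 15.3% lower. Their median log2 difference was 0.66 at day 3, against 1.26 at day 0 and 0.024 over all genes at day 3. Without the second 14-day library of day 3, 2 rather than 4 were lower. Of the 146 lowered genes, 77 (52.7%) were again lower, 17 (11.6%) were higher and 52 were not called, and their median was -0.51. By size, 19 raised and 45 lowered genes were both called and at least 2-fold apart in the same direction at day 3, and 1 and 4 in the opposite direction; among all genes 1.84% were called and at least 2-fold higher then and 2.90% at least 2-fold lower.

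The 7-day cells of day 3 give another comparison with no library of the day 0 comparison on either side, although its controls are those of the 14-day comparison at day 3. Against control cells at day 3, 37 of the 70 raised genes (52.9%) were higher in 7-day cells, 3 were lower and 30 were not called, where 6.75% of all genes were higher and 7.43% lower. Of the 146 lowered genes, 72 (49.3%) stood lower, 10 stood higher, and the other 64 were not called. The median log2 differences were 0.53 and -0.55. Whether control cultures of day 0 and day 3 came from the same animals is not given, so a trait of those cultures and an effect of unloading cannot be told apart here.

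Over all 13215 genes the agreement between days was weak. The log2 differences of 14-day cells from control at day 0 correlated with those at day 3 at r = 0.19 (Spearman 0.12), and with those of 7-day cells at day 3 at r = 0.17 (Spearman 0.18). These are descriptions across genes, which are not independent replicates and share libraries, depth and scaling within each comparison.

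The lowered genes fell into 3 kinds by what they did later. The 77 that were still lower at day 3 had a median of 23.6 CPM in control and 6.84 CPM in 14-day cells at day 0. At day 3 their medians were 42.9 and 13.1 CPM, higher than at day 0 in both and still apart. The 17 that were higher in 14-day cells at day 3 went from 40.3 and 9.40 CPM at day 0 to 37.7 and 68.0 CPM at day 3. In this group control cells held their median while 14-day cells passed them, as ENSRNOG00000023548 did. These 17 were 11.6% of the lowered genes, below the 16.0% of all genes tested that were higher at day 3. The 52 that did not pass at day 3 had medians of 12.4 and 3.86 CPM at day 0 and of 4.04 and 4.35 CPM at day 3. There the median of control cells at day 3 was near that of 14-day cells, which had hardly moved. The sorting into 3 kinds uses the day 3 libraries, so these medians show what each kind looked like and are not tested.

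The raised genes could be sorted likewise. The 43 that were higher at both days had medians of 9.38 CPM in control and 26.4 CPM in 14-day cells at day 0, and of 20.4 and 36.6 CPM at day 3. The 23 that did not pass at day 3 had medians of 5.68 and 16.8 CPM at day 0, and of 3.85 and 3.77 CPM at day 3. Here the medians of both groups lay close together at day 3. The other 4 stood at medians of 18.4 and 47.4 CPM at day 0 and 31.2 and 14.2 CPM at day 3. They were 5.71% of the raised genes, below the 15.3% of all genes tested that were lower at day 3.

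The genes that differed before induction were then set against a response to induction. The response was taken from 7-day cells (day 3 minus day 0), the only treatment whose response shares no library with the comparison of 14-day and control cells at day 0. It also includes 3 more days in culture, since every group of day 3 had been induced. By the median, its starting point, 7-day cells at day 0, already differed from control in the same direction. The median log2 difference there was 0.30 in the 1038 higher genes and -0.41 in the 1175 lower genes. The genes were chosen with the same control libraries, and how much of this shift comes from that choice was not tested. Single genes did not all share the shift. For the groups as a whole, a response to induction and a loss of that earlier difference cannot be told apart in these counts. Of all genes tested 24.8% rose and 26.9% fell in this response. Of the 1038 genes that were higher after 14 days at day 0, 556 (53.6%) fell on induction and 259 (25.0%) rose. Of the 1175 that were lower, 476 (40.5%) rose and 409 (34.8%) fell. Genes of high level passed the day 0 test more often, as given above, so both directions are set beside those of all genes: in the higher genes the excess over all genes was in the falls alone, and in the lower genes it was in both directions.

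The larger differences showed the same lean. Of the 70 raised genes 42 (60.0%) fell on induction of 7-day cells, 20 (28.6%) rose and 8 were not called; the median log2 change was -0.73. Of the 146 lowered genes 72 (49.3%) rose, 55 (37.7%) fell and 19 were not called; the median was 0.26. The quartiles were wide, from -1.96 to 0.71 in the raised and from -1.10 to 1.58 in the lowered genes, so members of each group went both ways. The median raised gene went from 19.2 and 18.4 CPM to 15.4 and 16.1 CPM in 7-day cells. In control cells it went up, from 7.77 and 8.13 CPM to 9.93 and 9.99 CPM. The median lowered gene went up in both. The control libraries of day 0 entered the choice of genes, so the course in control cells is given and not tested. Among abundant genes, 35 of the 48 that were higher fell on induction and 5 rose, while of the 41 that were lower 23 rose and 12 fell. Of all 120 tested genes at that level, 59 fell and 45 rose. The 5 genes with the largest gain in CPM all fell on induction, by 1.20-fold to 7.97-fold. The gene with the gain next to the largest, for example, stood at 13811 and 13415 CPM in control and 19632 and 18823 CPM in 14-day cells at day 0. It dropped to 1584 and 1608 CPM in 7-day cells at day 3, from 11801 and 13625 CPM at day 0. In control cells it was at 1941 and 1881 CPM at day 3. Its mean at day 0 was 12713 CPM in 7-day and 13613 CPM in control cells, so it did not share the shift of the higher genes. Over all 13215 genes the correlation of the day 0 difference with this response was weak, at r = -0.092 (Spearman -0.10).

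The genes were also counted by their response and by what was left of their difference at day 3. Of the 20 raised genes that rose on induction of 7-day cells, 17 were still higher in 14-day cells at day 3, and of the 42 that fell 22 were. Among the lowered genes, 43 of the 72 that rose were still lower at day 3 and 13 were higher, and of the 55 that fell 22 were still lower and 2 higher. Of all 3275 genes tested that rose, 822 were higher and 649 lower in 14-day cells at day 3, and of the 3552 that fell 576 were higher and 673 lower. Whether these shares differ was not tested.

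**Figure D5:**
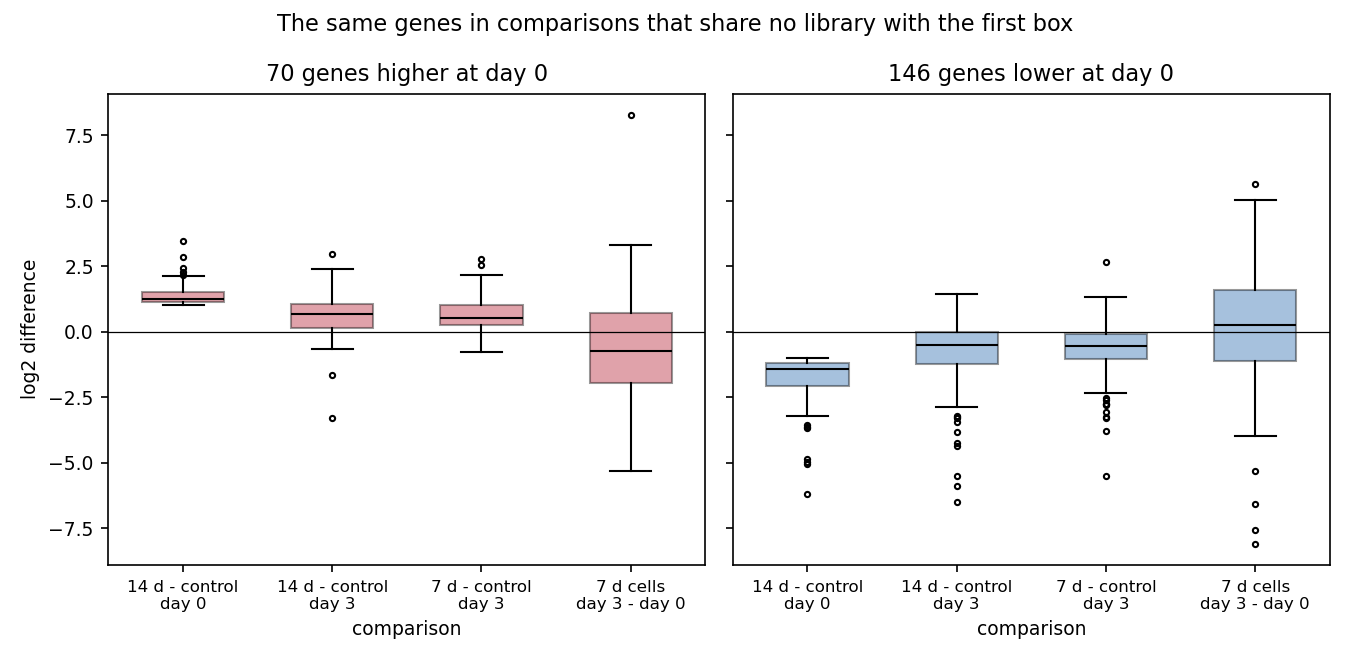
Log2 differences (vertical axis) of the 70 raised genes (left) and the 146 lowered genes (right) in the comparison they were chosen on (first box of each panel) and in 3 comparisons that share no library with it; boxes span the quartiles with the median as a line, whiskers reach the last gene within 1.5 times the box height. The medians of the raised genes are 1.26, 0.66, 0.53 and -0.73, and those of the lowered genes -1.43, -0.51, -0.55 and 0.26.

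The larger differences depended little on any single library of the comparison, and the small ones depended on it more. Of the 70 raised genes 68 (97.1%) were called in the same direction when any 1 of the 4 libraries was left out, and of the 146 lowered genes 136 (93.2%). Of all higher genes 497 of 1038 (47.9%) were, and of all lower genes 598 of 1175 (50.9%). A group left with 1 library is assumed to vary like the other groups in such a fit.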

How the data were processed

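The authors' deposited table holds raw counts per Ensembl gene identifier in 12 columns, which match the labels of the 12 libraries. Per the submitters' processing notes, the build was Rnor_6.0 and the tools named were STAR 2.7, featureCounts 1.6.4, FastQC 0.11.9 and DESeq2. The libraries were stranded mRNA libraries (TruSeq) read at 51 bp, per the labels. The strand setting, the annotation release and the handling of read pairs and of reads shared by overlapping or near-identical genes are not stated in the sources.

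Low-count genes were removed with filterByExpr (edgeR 4.0.16, R 4.3.3), and the rest were scaled by TMM and tested with glmQLFit and glmQLFTest in 1 fit of 6 group means to 12 libraries (6 residual degrees of freedom, two-sided), with a Benjamini-Hochberg FDR of 0.05 within each comparison. The test was checked on simulated counts drawn without the excess of even numbers seen here, so that check does not cover it. A group with 0 reads allows up to 3 counts over its 2 libraries (0.0749 to 0.0813 CPM). Such limits cover counting error only. They take single counts as independent reads, which may not hold here, and would be higher if it does not. Correlations of replicates used a prior count of 2.

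The genes to name were to be the 12 largest rises and 12 largest falls with a symbol, members of 36 lists of symbols, and the 5 largest gains and losses in CPM. With no symbols the lists were not used and the top 2 rises and falls are named. The groups of genes, the lists and the comparisons of 7-day cells with control at day 3 and of 7-day cells between days were chosen with results of these data known. Alternatives were other scalings, filters, sets of libraries and tests (DESeq2 1.42.0), halved counts, a replicate block and each library left out.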

Additional observations from a re-analysis of the deposited data

Results flagged for a closer look

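The results here stand out because an effect of 14 days of unloading differed from the effect under another condition, by the edgeR test of that difference. In ENSRNOG00000023548 the difference between 14-day and control cells moved by 7.18 on the log2 scale from day 0 to day 3 (SE 0.19, adjusted p = 1.15e-26). In ENSRNOG00000058193 it moved by 2.49 toward control (SE 0.76, adjusted p = 0.0149), which did not pass without the second 14-day library of day 0 (2.41, adjusted p = 0.0592) or of day 3 (2.13, adjusted p = 0.137). At day 0, 14-day cells were above 7-day cells in ENSRNOG00000046834 by 0.53 (adjusted p = 0.0024) and in ENSRNOG00000012058 by 1.26 (adjusted p = 0.0146). They were below them in ENSRNOG00000023548 (-2.99, adjusted p = 2.30e-12) and in ENSRNOG00000058193 (-2.58, adjusted p = 0.00166). These 4 genes were chosen for their difference at day 0, with libraries that also enter these tests. For ENSRNOG00000046834 and ENSRNOG00000012058 the day 0 and day 3 differences did not differ past the threshold (-0.47, adjusted p = 0.155, and -1.07, adjusted p = 0.467).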

How the results depend on the processing

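The 2213 calls at day 0 ranged from 1931 (DESeq2 test) to 2611 (only the 4 libraries compared) over the 9 alternatives of scaling, filter, test, counts, block and libraries in the fit, from 1507 to 1623 when 1 of its 4 libraries was left out, and from 2099 to 2481 without 1 of the other 8. No gene called in the 12-library fit was called in the opposite direction under any of these settings. Total count scaling gave 865 higher and 1407 lower genes, 38.1% higher against 46.9% with TMM. The raised genes numbered 61 to 81 and the lowered genes 139 to 154. With a replicate block 2106 genes were called. Deviations of libraries with the same replicate number hardly correlated (0.015 between control and 14-day cells at day 0). This cannot settle whether such libraries share animals or cultures. The block ended 1 call of the named genes, that of ENSRNOG00000012058 at day 3 (adjusted p = 0.0566 in the edgeR test). That call was lost under most other settings too. The count of genes that differ between 14 and 7 days at day 0, 1550, ranged from 862 to 1695 when 1 library was left out, and was 862 and 887 without the first or second 14-day library of day 0; the cause was not tested. With 2 libraries per group and 6 residual degrees of freedom, depth limits genes under 1 CPM most.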

Other observations

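Genes without a single read in 1 of the groups were few and of low level. In 4 genes that rose, both control libraries of day 0 had 0 reads, which allows up to 0.0813 CPM, and the highest of the 4 reached 0.490 CPM after 14 days. In 13 genes that fell, both 14-day libraries had 0 reads, which allows up to 0.0749 CPM, and 1 of the 13 had more than 1 CPM in control cells (1.51 CPM). With these 13 at that floor, the median log2 difference of the 288 genes at least 2-fold lower was -1.77, against -1.80 by the fit.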
